A study of Mus musculus with 10 samples.

Results

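The neutrophil calprotectin and granule genes analysed here were S100a8, S100a9, Retnlg, Ly6g, Lcn2, Mmp8, Camp, Ngp, Ltf and Cd177. They were taken by gene name from the deposited table, which held all 10 of them among 34449 genes. The RNA was from 4T1 tumors, which grow from a single mouse breast cancer cell line implanted into BALB/C mice, 9 weeks old according to the series description. The control group held 5 tumors of mice without BC@Z-M + L, and the vehicle, if any, is not given in the sources used here. The therapy group held 5 tumors treated with BC@Z-M + L, where BC@Z-M is a zinc imidazolate (ZIF-8) nanoparticle loaded with the hypoxia-activated probe BN-O and the vascular disrupting agent CA4P, coated with membrane of M1-like polarized RAW264.7 macrophages, and L is laser irradiation. Whether each library came from a separate mouse is not given in the sources used here, so the p-values measure the spread between these libraries. The series description gives triplicates, whereas 5 libraries per group were listed and used.

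Neutrophils are short-lived white blood cells that are released from the bone marrow with their defence proteins already packed into granules. The granules are filled in sequence during maturation: azurophil granules (with myeloperoxidase and elastase) are made first, then specific granules (with lactoferrin, cathelicidin, lipocalin and collagenase) and then gelatinase granules, while the calprotectin subunits S100A8 and S100A9 accumulate in the cytosol. Transcripts of granule proteins are therefore highest in precursors, while calprotectin transcripts stay high in mature cells. The 4T1 line is known for secreting granulocyte colony-stimulating factor and for driving an accumulation of granulocytic cells in its host. In whole tumor RNA, fewer cells of a type and less RNA per cell cannot be told apart.

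Promoter sequences of a calprotectin pair and a granule pair are shown because the members of each pair, described below, followed each other most closely over the libraries. Each runs 5′ to 3′ from 250 bases before to 50 bases after the annotated start in RefSeq, mouse build GRCm38.p6, and capitals mark matches to TATAAA (the TATA box letters) or TTNNGCAA (the core of the C/EBP motif, where C/EBP factors are regulators of granulocyte maturation) on either strand. S100a8 lies at chr3:90668821-90669120 on the plus strand, S100a9 at chr3:90695672-90695971 on the minus strand, Camp at chr9:109849407-109849706 on the minus strand and Ngp at chr9:110419558-110419857 on the plus strand.
S100a8: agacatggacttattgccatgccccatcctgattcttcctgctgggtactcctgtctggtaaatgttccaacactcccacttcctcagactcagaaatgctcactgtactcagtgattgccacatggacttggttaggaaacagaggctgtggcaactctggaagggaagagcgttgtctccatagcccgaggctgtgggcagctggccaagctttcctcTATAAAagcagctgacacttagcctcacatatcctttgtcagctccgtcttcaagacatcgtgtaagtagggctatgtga
S100a9: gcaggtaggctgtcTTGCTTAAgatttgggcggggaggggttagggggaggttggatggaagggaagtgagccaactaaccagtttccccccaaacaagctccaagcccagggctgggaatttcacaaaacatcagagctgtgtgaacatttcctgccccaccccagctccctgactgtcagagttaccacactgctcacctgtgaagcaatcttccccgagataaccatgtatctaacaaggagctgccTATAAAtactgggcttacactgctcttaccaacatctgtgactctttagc
Camp: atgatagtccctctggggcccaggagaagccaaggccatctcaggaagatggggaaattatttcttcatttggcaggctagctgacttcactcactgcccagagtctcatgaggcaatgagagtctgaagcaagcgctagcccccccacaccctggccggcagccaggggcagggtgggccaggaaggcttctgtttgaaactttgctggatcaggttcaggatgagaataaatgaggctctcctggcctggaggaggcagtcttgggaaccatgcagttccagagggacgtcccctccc
Ngp: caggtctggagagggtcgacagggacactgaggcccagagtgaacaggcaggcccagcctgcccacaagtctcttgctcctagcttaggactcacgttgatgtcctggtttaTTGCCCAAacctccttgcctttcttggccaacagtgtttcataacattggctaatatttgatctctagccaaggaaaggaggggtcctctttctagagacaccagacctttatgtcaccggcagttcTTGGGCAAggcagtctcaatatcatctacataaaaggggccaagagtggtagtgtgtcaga

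The S100a8 window held TATAAA at position -30 from the annotated start, and the S100a9 window held it at position 1 together with TTGCTTAA at position -236. The Ngp window held TTGGGCAA at position -11 and TTGCCCAA at position -138, whereas neither set of letters was in the Camp window. Over all 10 genes, which were all matched to RefSeq, TATAAA or its reverse complement was present for 5 genes and in 13.6% of the 32851 promoter windows of the same length. TTNNGCAA or its reverse complement TTGCNNAA was present for 7 genes and in 10.8% of the windows. These matches describe letters only. S100a8 and S100a9 are neighbours on chromosome 3 with 0 annotated genes between them, while Camp, Ngp, Ltf and Mmp8 lie on chromosome 9, with 18 genes between Camp and Ngp and 25 between Ngp and Ltf.

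The depth was similar in both groups. The total of the estimated counts was 53411182 to 65263003 in the control and 53446143 to 77510631 in the therapy libraries. Levels are given as FPKM, read fragments scaled to transcript length and to the library's total. The FPKM of all genes summed to 306050 to 359670 in control libraries, with the highest total in control replicate 2. In therapy libraries they summed to 305810 to 321660. Differences are given as the therapy mean minus the control mean of log2(FPKM + 1), which understates the change of low genes. The therapy mean was below the control mean for 9 of the 10 genes and above it for 1, Camp, while 53.8% of all 12802 genes tested were lower. None of the 10 passed the test in limma at an adjusted p under 0.05, and 0.0% of all genes tested did. In edgeR (0.0% of genes) and DESeq2 (0.0182%) none of the 10 passed either. At an unadjusted p under 0.05, 1 member (Retnlg) was past the threshold in limma, against 2.52% of all genes tested in either direction and 1.73% that were lower, and it alone was so in edgeR (2.92% of genes) and in DESeq2 (2.62%). The groups overlapped for all 10 genes, while they did not overlap for 0.414% of the genes tested. Counts of therapy libraries below or above every control, given below for single genes, describe those genes only. Their share over all genes tested was not counted. On the estimated counts, 7 of the 10 genes were lower and 3 higher in both edgeR and DESeq2. The median difference of the 10 genes was -0.28 in limma and -0.10 in edgeR, beside -0.012 and 0.016 over all genes tested, and their adjusted p in limma were between 0.997 and 0.9999. Intervals given below are 95% intervals from the same limma fit.

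**Figure D1:**
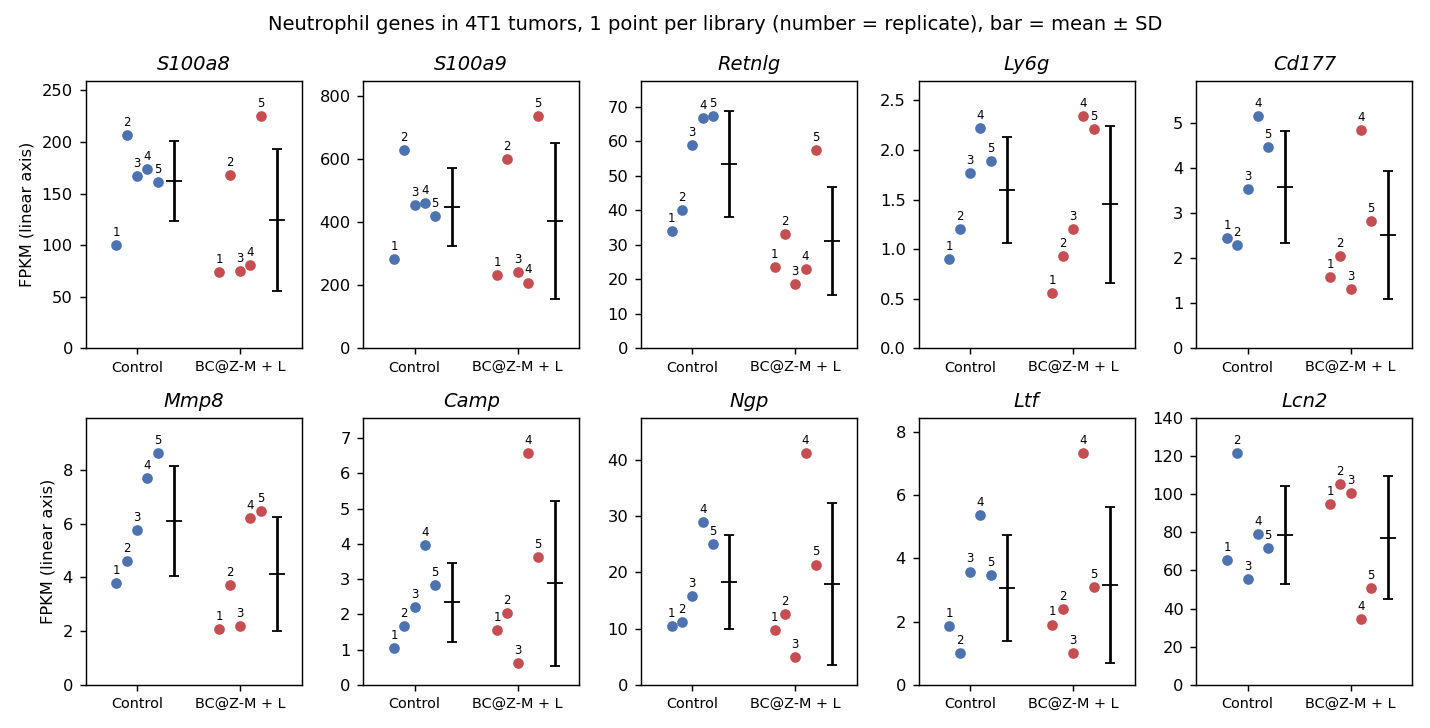
FPKM of each of the 10 genes (linear axes starting at 0) in the 5 control and 5 BC@Z-M + L libraries, 1 point per library with its replicate number, and the mean ± SD beside each group. Values of both groups overlap in every panel, and therapy replicate 4 is highest for Camp, Ngp and Ltf but lowest for S100a9 and Lcn2.

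S100a8 and S100a9 encode the subunits of calprotectin, a calcium- and zinc-binding complex that makes up much of the neutrophil cytosol and that is also made by monocytes and stressed keratinocytes. S100a9 was at 282, 630, 455, 460 and 421 FPKM in control replicates 1 to 5 and at 232, 602, 242, 209 and 738 FPKM in therapy replicates 1 to 5. The therapy libraries thus split into 3 below every control and 2 that were among the 3 highest of all. S100a8 was at 100, 207, 167, 174 and 162 FPKM in the control libraries and at 74.2, 168, 75.1, 80.4 and 225 FPKM in the therapy libraries. The same 3 therapy libraries were below every control, and therapy replicate 5 was the highest library for both genes. The mean was 450 ± 124 FPKM (SD, n = 5) against 404 ± 248 (n = 5) for S100a9, a difference of -0.32 on the log2 scale with an SE of 0.36 and an interval from -1.11 to 0.48. For S100a8 it was 162 ± 38.7 against 125 ± 68.9 FPKM, a difference of -0.50 with an SE of 0.32 and an interval from -1.21 to 0.21. Without therapy replicate 5 these differences were -0.75 for S100a8 and -0.59 for S100a9, and without therapy replicate 4 the S100a9 difference was -0.13.

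The ratio of S100a9 to S100a8 was nearly constant. It was between 2.60 and 3.58 over all 10 libraries, a 1.38-fold range, while the sum of both genes ranged 3.34-fold, from 289 to 964 FPKM. The control ratio was 2.77 ± 0.18 (SD, n = 5) and the therapy ratio 3.16 ± 0.36 (n = 5), and 4 of 5 therapy libraries were above every control. This ratio was looked at after the values were seen and was not tested. Calprotectin transcripts made up 0.0915% to 0.2996% of all FPKM and 69.3% to 86.7% of the FPKM of the 10 genes.

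Markers of the other cells that make calprotectin were measured in the same libraries. The 7 keratinocyte genes (such as Krt5 and Krt10) were all higher on the mean in the therapy group, but 0 of them passed the limma test. None of them was at 0 in every library. Their summed level was 4.62 to 67.0 FPKM in control libraries and 4.81 to 385 in therapy libraries, with the highest value in therapy replicate 2. The next highest therapy sum was 23.6 FPKM in replicate 3, below control replicates 1 (67.0) and 3 (52.9). The part of the keratinocyte genes in the S100a8 and S100a9 level of therapy replicate 2 was not tested. Without that library the differences were -0.65 for S100a8 and -0.51 for S100a9. In therapy replicate 5 and control replicate 2, the libraries with the highest calprotectin, the keratinocyte sum was 12.9 and 4.62 FPKM. Of the 8 monocyte and macrophage genes, 6 were higher and 2 lower in the therapy group in limma. In both edgeR and DESeq2, 4 were higher and 4 lower. None was at 0 in every library. The 8 genes summed to 405 to 1342 FPKM in control libraries and to 489 to 724 in therapy libraries. The sum was highest in control replicate 2, where Lyz2 was at 848, C1qa at 225 and C1qb at 173 FPKM. In that library Ccr2 was at its highest (12.1 FPKM) and Ly6c2 at its lowest (2.98 FPKM) of all libraries. The part of the 8 genes in the calprotectin level was not tested.

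Retnlg, which encodes resistin-like gamma, a small secreted protein expressed in mouse neutrophils and bone marrow, had the largest difference of the 10 genes. It was at 34.1, 39.97, 59.1, 66.8 and 67.4 FPKM in control replicates 1 to 5 and at 23.6, 33.1, 18.7, 22.9 and 57.6 FPKM in therapy replicates 1 to 5. In 4 of 5 therapy libraries Retnlg was below every control, and therapy replicate 5 overlapped with the controls. The mean was 53.5 ± 15.5 FPKM (SD, n = 5) in control and 31.2 ± 15.7 (n = 5) in therapy tumors, a difference of -0.82 with an SE of 0.29 and an interval from -1.46 to -0.18. The limma p was 0.0161 before and 0.997 after Benjamini-Hochberg adjustment, so the difference did not pass the test. On the estimated counts it was -0.73 in both edgeR and DESeq2, with p of 0.0433 and 0.0215 before and 0.985 and 0.99999 after adjustment. Leaving out 1 library at a time gave -1.07 to -0.67. Retnlg belongs to a family of related genes, so its count could be affected by how reads shared between copies were assigned, which is not given in the sources used here.

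The genes of the surface proteins had low RNA levels. Ly6g, the GPI-anchored protein by which mouse neutrophils are recognised, was at 0.897 to 2.22 FPKM in control libraries (median 1.77) and at 0.559 to 2.34 FPKM in therapy libraries (median 1.21). Its difference was -0.12 with an interval from -0.62 to 0.38, and it turned to 0.029 without therapy replicate 1. Reads of Ly6g can be shared with other genes of the Ly6 family. Cd177, a neutrophil surface protein that binds PECAM-1 on endothelium, was at 2.44, 2.30, 3.52, 5.15 and 4.47 FPKM in the control libraries and at 1.58, 2.04, 1.30, 4.83 and 2.81 FPKM in the therapy libraries. For Cd177, 3 of 5 therapy libraries were below every control. The difference was -0.42 with an SE of 0.26 and an interval from -0.99 to 0.14.

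The ratio of Retnlg to Ly6g was 30.05 to 38.0 in the control libraries and 9.79 to 42.2 in the therapy libraries. The ratio was below every control in therapy replicates 3 (15.5), 4 (9.79) and 5 (26.0). Of these, replicates 4 and 5 had the highest Ly6g of the therapy group (2.34 and 2.22 FPKM). This ratio was likewise chosen after the values were seen and was not tested.

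The specific granule genes are those of enzymes and antimicrobial proteins. Mmp8, the neutrophil collagenase, was at 3.79, 4.62, 5.78, 7.71 and 8.65 FPKM in the control libraries and at 2.08, 3.72, 2.20, 6.23 and 6.48 FPKM in the therapy libraries. Again 3 of 5 therapy libraries were below every control, and the difference was -0.52 with an SE of 0.29 and an interval from -1.15 to 0.11. Ngp, which encodes neutrophilic granule protein, a cystatin- and cathelicidin-related protein of mouse neutrophil precursors, was at 10.4, 11.2, 15.7, 28.9 and 25.1 FPKM in control and at 9.68, 12.5, 4.86, 41.3 and 21.4 FPKM in therapy libraries. Therapy replicate 4 was thus the highest and therapy replicate 3 the lowest of all 10 libraries. Camp, which encodes cathelicidin, an antimicrobial peptide precursor, showed the same order at its ends, with 0.621 FPKM in therapy replicate 3 and 6.59 in therapy replicate 4, and control libraries from 1.04 to 3.96 FPKM. Ltf, which encodes the iron-binding lactoferrin, was at 0.994 FPKM in therapy replicate 3 and 7.34 in therapy replicate 4, with control libraries from 1.02 to 5.37 FPKM.

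The differences of these 3 genes were small beside their spread. They were -0.24 for Ngp (interval -1.27 to 0.80), 0.081 for Camp (-0.74 to 0.90) and -0.032 for Ltf (-0.87 to 0.80), and each interval reached to both sides of 0. Therapy replicates 3 and 4 moved them most: without therapy replicate 4 they were -0.61, -0.21 and -0.33, and without therapy replicate 3 they were 0.10, 0.35 and 0.19. Ngp turned direction without therapy replicate 3 alone. Camp turned without therapy replicate 4 and also without control replicate 1 (-0.080) or therapy replicate 5 (-0.033), and Ltf without therapy replicate 3 and also without control replicates 3 (0.039), 4 (0.16) or 5 (0.030) or therapy replicate 1 (0.053). The 7 azurophil granule and precursor genes stand for the earliest granule stage. Of these, Mpo, Elane, Prtn3, Ctsg, Ms4a3 and Prss57 were also highest in therapy replicate 4, but each had a mean below 1 FPKM. For Prss57 the value there was 0.156 FPKM, close to 0.148 in control replicate 2. Ctsc, the only gene of that list with a mean of at least 1 FPKM, was highest in control replicate 2. It was at 55.0 FPKM in that library and at 41.6 FPKM in therapy replicate 4. There Elane (neutrophil elastase) was at 2.54 FPKM and Prtn3 (proteinase 3) at 2.10, while Elane was at or below 0.978 and Prtn3 at or below 1.71 in the other libraries. The sum of the 5 erythroid genes, another cell type of the marrow and blood, was 165 to 670 FPKM in control libraries, with the highest value in control replicate 4, and 110 to 256 in therapy libraries, with 237 in therapy replicate 4. Of these genes, 4 were tested and all 4 were lower on the mean in the therapy group, and their part in the granule gene levels was not tested.

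Lcn2 encodes lipocalin 2 (NGAL), a siderophore-binding protein of specific granules that is also made by epithelial and carcinoma cells. It was at 65.3, 122, 55.4, 79.4 and 71.9 FPKM in the control libraries and at 94.8, 105, 101, 34.5 and 51.0 FPKM in the therapy libraries. The means were almost equal, 78.8 ± 25.6 FPKM (SD, n = 5) against 77.2 ± 32.2 (n = 5), and the difference was -0.099 with an interval from -0.79 to 0.59. Leaving out 1 library at a time moved it between -0.24 and 0.15. Therapy replicate 4, the highest library for Ltf, was the lowest for Lcn2, and the ratio of Lcn2 to Ltf ranged 25.5-fold, from 4.70 there to 120 in control replicate 2. The 6 epithelial tumor cell genes, 3 higher and 3 lower in the therapy group and none at 0 in every library, summed to 1808 to 2255 FPKM in control and to 1568 to 2633 FPKM in therapy libraries, and their part in the Lcn2 level was not tested.

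**Figure D2:**
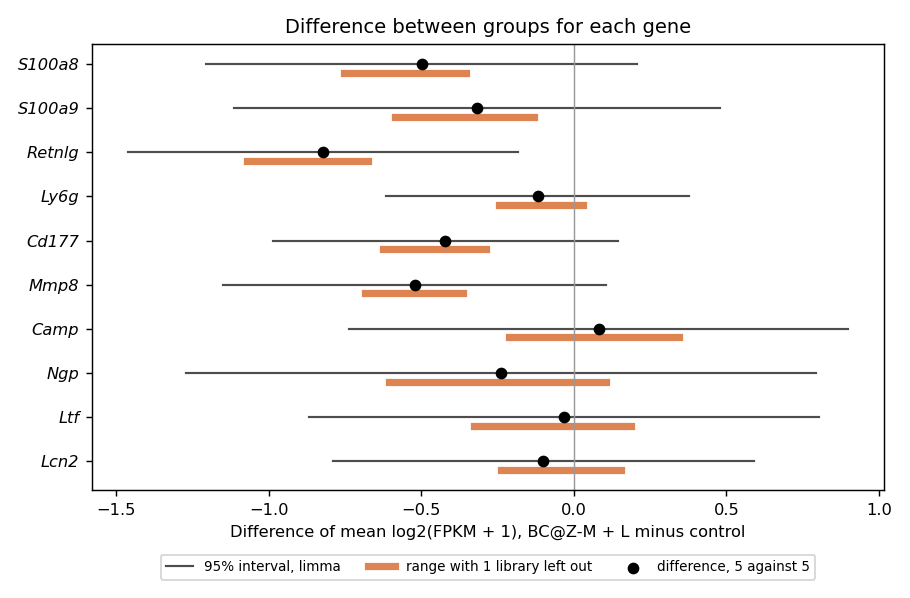
Difference of the mean log2(FPKM + 1), BC@Z-M + L minus control, for each gene (point), with its 95% limma interval (thin line) and the range of the difference when 1 library is left out at a time (thick line). The interval of Retnlg (-1.46 to -0.18) is the only one of the 10 that leaves out 0, and the left-out ranges of Ly6g, Camp, Ngp, Ltf and Lcn2 cross 0.

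All 10 genes varied more between libraries of a group than most genes did. The pooled within-group SD of log2(FPKM + 1) was 0.40 for Ly6g to 0.88 for Ngp, beside a median of 0.21 over all genes tested. Ly6g exceeded 88.5% and Ngp 98.6% of the genes tested in this spread, and the median of the 10 genes lay at 95.8%. For all 10 genes the SD of log2(FPKM + 1) was larger in the therapy group than in the control group, and the median over all genes tested was 0.21 in the therapy and 0.19 in the control group. How many of all genes tested had the larger SD in the therapy group was not counted, so this is not shown to be particular to the 10 genes. The difference in spread was not tested.

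The 10 genes fell short of a single block when all libraries were used, and how far changed without therapy replicate 3 or therapy replicate 4. Correlations of log2(FPKM + 1) over the 10 libraries were computed for all 45 pairs with 100000 permutations (two-sided, Benjamini-Hochberg over the 45 pairs), and 18 pairs passed at an adjusted p under 0.05, 17 of them positive. By Spearman's rho 15 pairs passed. S100a8 and S100a9 had r = 0.97 (permutation p = 4e-05, adjusted p = 0.0009) and rho = 0.95 (permutation p = 0.00014, adjusted p = 0.00315). Their r was 0.98 for the deviations from the group means and 0.97 without the 2 libraries farthest from the median of S100a8. Camp and Ngp had r = 0.97 (permutation p = 3e-05, adjusted p = 0.0009) and rho = 0.98 (permutation p = 1e-05, the smallest the permutations can give, adjusted p = 0.00045). Here r was 0.99 for the deviations and 0.92 without the 2 libraries farthest from the median of Camp.

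Grouped after the values were seen, Ly6g, Mmp8, Camp, Ngp, Ltf and Cd177 had r of 0.71 to 0.97 in their 15 pairs, 14 of which passed. The 12 pairs of S100a8 or S100a9 with one of these 6 had r of -0.067 to 0.63, and 0 of them passed by the adjusted permutation p, by r or by rho. Without therapy replicate 4 these 12 r were 0.33 to 0.80 and 2 pairs passed, S100a8 with Mmp8 (0.80, permutation adjusted p = 0.0299) and with Camp (0.76, adjusted p = 0.0422), while without therapy replicate 3 they were -0.29 to 0.52 and 0 passed. These 12 r thus rose without therapy replicate 4 and fell without therapy replicate 3, libraries picked after the values were seen. Why the values between both sets were low was not tested. The genes share the libraries and their depth, and the grouping itself has no test. S100a9 and Ngp had r = 0.15 (permutation p = 0.684, adjusted p = 0.774) and rho = 0.14 (permutation p = 0.706, adjusted p = 0.775). Their r moved with single libraries, with r = 0.58 without therapy replicate 4, -0.11 without therapy replicate 3 and 0.55 without the 2 libraries farthest from the median of S100a9. The ratio of S100a9 to Ngp accordingly ranged 11.1-fold, from 5.05 in therapy replicate 4 to 56.1 in control replicate 2. The ratio of Ngp to Camp ranged 1.70-fold, from 5.88 to 9.99.

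**Figure D3:**
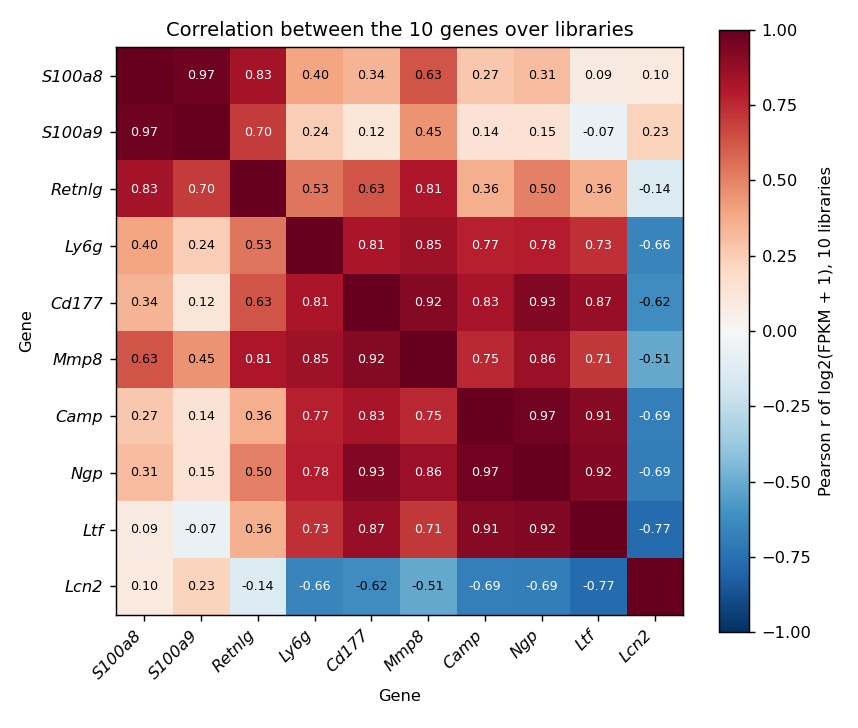
Pearson r of log2(FPKM + 1) over the 10 libraries for each pair of genes (color scale from -1 to 1, with r printed in each cell). S100a8 with S100a9 (0.97) and the block from Ly6g to Ltf (0.71 to 0.97) are high, Lcn2 with the genes of that block is negative (-0.77 to -0.51), and S100a8 or S100a9 with that block is -0.067 to 0.63 (0.33 to 0.80 without therapy replicate 4).

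**Figure D4:**
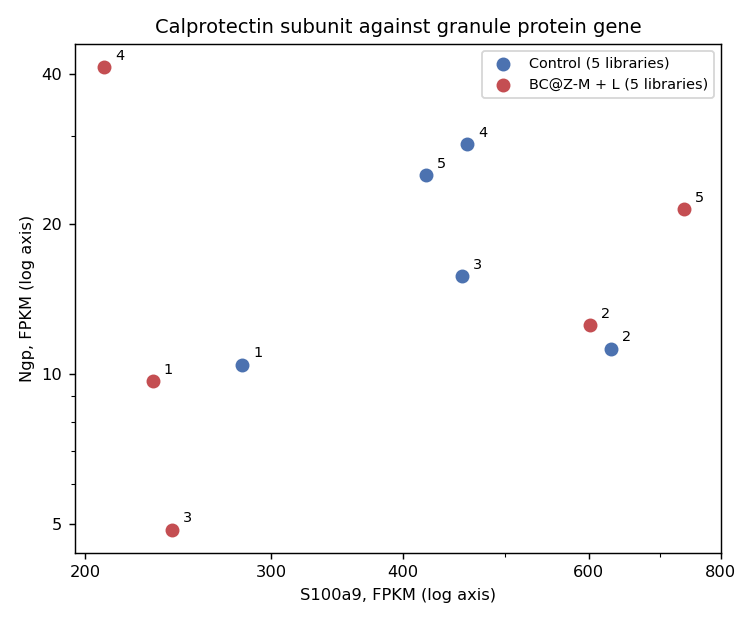
Ngp against S100a9, both in FPKM on log axes, with 1 point per library labelled by replicate number and colored by group. Therapy replicate 4 combines the highest Ngp (41.3 FPKM) with the lowest S100a9 (209 FPKM), and without it r was 0.58.

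Retnlg had r = 0.83 with S100a8 (permutation p = 0.0071, adjusted p = 0.0246), although rho was 0.61 (permutation p = 0.067, adjusted p = 0.143) and r was 0.69 without the 2 libraries farthest from the median of S100a8. With Mmp8 it had r = 0.81 (permutation adjusted p = 0.0246) and rho = 0.77 (adjusted p = 0.0381). The r of Retnlg with the 6 genes Ly6g, Mmp8, Camp, Ngp, Ltf and Cd177 was 0.36 to 0.81 with all libraries, where 1 pair passed, and 0.81 to 0.98 without therapy replicate 4, where all 6 passed by the adjusted permutation p. Without therapy replicate 3 it was 0.10 to 0.73 and 0 passed. Lcn2 ran against the granule genes, with r of -0.77 to -0.51 for its 6 pairs with Ly6g, Mmp8, Camp, Ngp, Ltf and Cd177. Of these, Lcn2 with Ltf passed by r (-0.77, permutation p = 0.00993, adjusted p = 0.0279) but not by rho (-0.66, permutation p = 0.0446, adjusted p = 0.112). Its r was -0.46 without the 2 libraries farthest from the median of Lcn2, a removal that also narrows the range of Lcn2. With 1 library left out at a time r was -0.87 to -0.60, and for the deviations from the group means it was -0.77. No pair of Lcn2 with these 6 passed without therapy replicate 3 or without therapy replicate 4. The count of 18 pairs was 22 for the deviations from the group means, 12 without therapy replicate 3 and 23 without therapy replicate 4.

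The genes whose levels were most like the mean of the 10 standardized members, chosen for that likeness among the genes tested and therefore given without a p, were Osbpl9 (r = 0.95 over the 10 libraries), Zpr1 (0.93), Kctd6 (0.89), Ifitm6 (0.88) and Txn1 (0.88). Ifitm6, an interferon-induced transmembrane family gene known from mouse myeloid cells, was at 13.2 ± 3.40 FPKM (SD, n = 5) in control and 9.46 ± 3.85 (n = 5) in therapy tumors, a difference of -0.48 that did not pass the limma test (adjusted p = 0.997). Osbpl9 (oxysterol-binding protein-like), Zpr1 (a zinc finger protein), Kctd6 (a cullin adaptor) and Txn1 (thioredoxin) are expressed in many cell types, and their differences were -0.034, -0.055, -0.17 and -0.056.

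Other genes of neutrophil biology were counted by list. Of 10 genes listed as other specific and gelatinase granule genes, 8 were tested. Of these, 3 had a higher and 5 a lower therapy mean, and none passed the limma test (median -0.23). Padi4, whose product is not a granule protein, was 1 of the 3 higher genes (difference 0.085). Wfdc21, a small secreted protein gene expressed in neutrophils, was at 13.4 ± 5.37 FPKM in control and 7.34 ± 3.87 in therapy tumors (SD, n = 5 each), and its difference of -0.84 had a limma p of 0.0235 and an adjusted p of 0.997. Mmp9, the gelatinase of neutrophils and other cells, was at 113 ± 44.6 FPKM in control and 178 ± 126 in therapy tumors (difference 0.40, SE 0.51). That difference was 0.055 without therapy replicate 1, where Mmp9 was at 360 FPKM, and 0.75 without therapy replicate 4. Of the 7 azurophil granule and precursor genes, 1 was tested, Ctsc, which encodes the cathepsin that activates granule proteases (difference 0.12). The other 6 had a mean below 1 FPKM.

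Receptors of mature neutrophils were balanced, with 5 higher and 5 lower of 10 tested and a median of 0.011 in limma (6 and 4 in edgeR, median 0.20). Csf3r, the receptor for granulocyte colony-stimulating factor, was at 16.6 ± 3.58 FPKM in control and 19.1 ± 9.12 in therapy tumors (SD, n = 5 each). Of 6 granulocyte transcription factors, 4 were tested, with 3 higher and 1 lower. Cebpb, which drives emergency granulopoiesis, was at 130 ± 24.8 FPKM in control and 143 ± 38.6 in therapy tumors, and Cebpd at 9.96 ± 2.57 and 9.00 ± 4.61. All 5 NADPH oxidase subunits were tested, with 3 higher and 2 lower, and Cyba (69.1 and 67.2 FPKM on the mean) and Cybb (7.86 and 9.15), the subunits of its membrane-bound cytochrome, differed by -0.046 and 0.16. None of these genes passed the limma test.

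The factors that recruit neutrophils and keep them alive gave 2 higher and 5 lower of 7 tested out of 8 in limma (median -0.14), but 5 higher and 2 lower in both edgeR and DESeq2 (median 0.25 in each), so the list had no direction that held across the fits. Csf3, granulocyte colony-stimulating factor itself, was at 96.2 ± 37.5 FPKM in control and 102 ± 78.4 in therapy tumors (SD, n = 5 each). Cxcl2, a neutrophil chemoattractant, was at 14.4 ± 7.81 and 13.7 ± 11.4 FPKM, with its lowest value of 1.58 in therapy replicate 4 and its highest of 27.8 in therapy replicate 2. Csf3 was likewise lowest in therapy replicate 4 (34.4 FPKM) and highest in therapy replicate 2 (233 FPKM). Binding partners and inhibitors of the proteins, 7 tested of 9, were higher for 5 and lower for 2 (median 0.099). They include Bsg, a receptor for S100A9 (298 and 304 FPKM on the mean), and Timp1, an inhibitor of matrix metalloproteinases (149 ± 19.8 and 188 ± 41.8 FPKM, difference 0.31, SE 0.16).

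Among 9 tested of 12 other S100 genes, 1 was higher and 8 were lower (median -0.23). S100a11 was at 912 ± 115 FPKM in control and 856 ± 80.8 in therapy tumors, and S100a4, a metastasis-associated S100 gene, at 552 ± 311 and 469 ± 368 (SD, n = 5 each). Of 7 genes listed for granulocytic suppressor cells, 5 were tested with 2 higher and 3 lower (median -0.047), and Wfdc17, a whey acidic protein family gene of myeloid cells, was at 58.1 ± 18.5 and 39.4 ± 17.1 FPKM (difference -0.61, SE 0.32). In each of these lists 0 genes passed at an adjusted p under 0.05, and Wfdc21 was the only listed neutrophil pathway gene with an unadjusted p under 0.05.

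**Figure D5:**
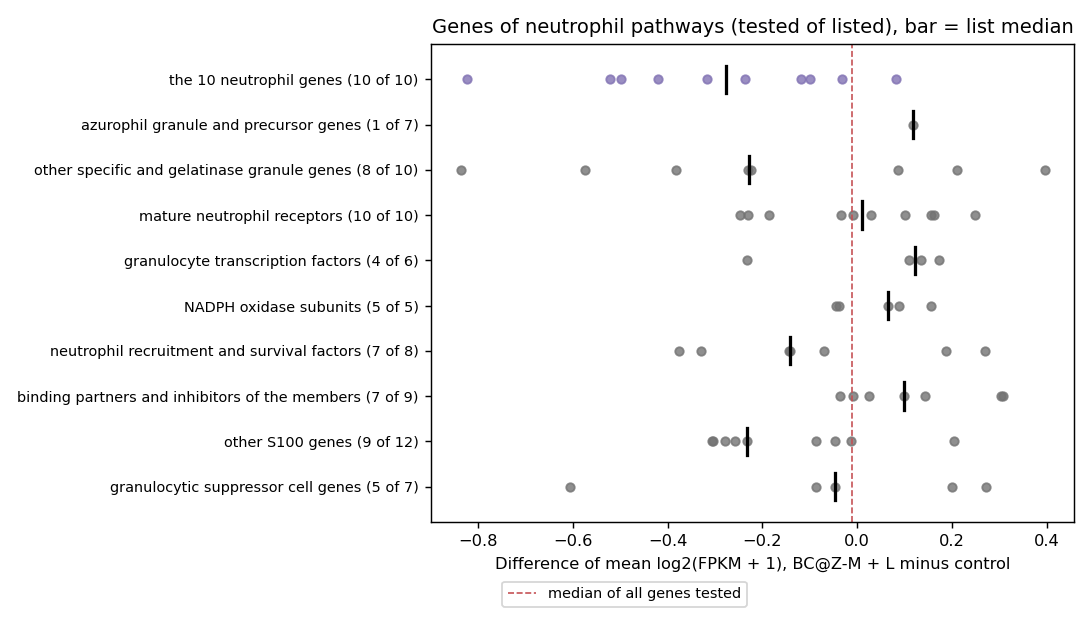
Difference of the mean log2(FPKM + 1), BC@Z-M + L minus control, for each tested gene (point) of the 10 neutrophil genes and of 9 lists of neutrophil biology, with the list median (bar) and the median of all genes tested (dashed line, -0.012). The medians run from -0.28 for the 10 neutrophil genes to 0.12 for the transcription factors and the single azurophil gene.

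Genes of the neutrophil biology lists that were above 0 FPKM in at least 6 libraries were also set against S100a9 and Ngp. This comparison was chosen after the values were seen and gave 140 correlations of 70 genes, adjusted together. The keratinocyte, monocyte and macrophage, epithelial tumor cell and erythroid genes were not part of it. With S100a9, 3 genes passed by r and with Ngp 0 genes, and none passed by rho. Cxcl3, a neutrophil chemoattractant, had r = 0.93 with S100a9 (permutation p = 0.00014, adjusted p = 0.0196) and rho = 0.89 (permutation p = 0.00111, adjusted p = 0.081). Clec4d, a C-type lectin receptor of neutrophils and monocytes, had r = 0.90 (permutation p = 0.00035, adjusted p = 0.0245) and rho = 0.88 (permutation p = 0.00186, adjusted p = 0.081). Cxcl2 had r = 0.87 (permutation p = 0.00104, adjusted p = 0.0485) and rho = 0.87 (permutation p = 0.00235, adjusted p = 0.081). Without the 2 libraries farthest from the median of S100a9, r was 0.90 for Cxcl3, 0.88 for Clec4d and 0.83 for Cxcl2. For the deviations from the group means r was 0.93, 0.92 and 0.87. The closest gene to Ngp was Chil3, a chitinase-like protein of neutrophil precursors and macrophages, with r = 0.84 (permutation p = 0.00239, adjusted p = 0.0586) and rho = 0.84 (permutation p = 0.00371, adjusted p = 0.081).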

How the data were processed

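Total RNA of frozen tumors was sequenced after TruSeq library preparation. The authors aligned reads to the mouse genome with HISAT2 and deposited FPKM values from StringTie per gene. The deposited table also holds estimated counts as whole numbers, and how they were made is not given in the sources used here. Low estimated counts pile up at 4, so 1 count need not be 1 read. The submitters' processing notes name cutadapt 1.9, FastQC and GRCm38, while the methods name a later Ensembl release, so no coordinates of the authors' annotation were used.

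Of the FPKM values, log2(FPKM + 1) was fitted with limma 3.58.1 (R 4.3.3, variance trend) for the 12802 genes whose FPKM averaged 1 or more, with Benjamini-Hochberg adjustment, for 5 therapy against 5 control libraries. The 10 genes, the lists and the tests were chosen with earlier results of these data known. The other genes named are, per list, those with the highest mean FPKM and the largest change, and the 5 most like the 10 genes (1 gene of this rule is not reported here); Cxcl3, Clec4d and Chil3, and the azurophil and marker genes named beside results, were chosen after their values were seen. Alternatives were edgeR 4.0.16 and DESeq2 1.42.0 on the estimated counts, other pseudocounts, filters and scalings, a replicate block and leaving out each library. The scripts were tested on simulated data.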

Additional observations from a re-analysis of the deposited data

Results flagged for a closer look

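Among the 31 named genes in both groups, 62 sets of 5 libraries were examined for a library far from the others, and 2 held one, where chance flags about 1 in 20. Cebpb was at 173 FPKM in control replicate 2, above the other controls at 110 to 123 FPKM. That library also had the highest sum of monocyte and macrophage genes. Timp1 was at 115 FPKM in control replicate 3, below the other controls at 152 to 163 FPKM. None of the 10 neutrophil genes held such a library.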

How the results depend on the processing

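None of the 10 genes passed at an adjusted p under 0.05 under any alternative run in limma, edgeR or DESeq2 (adjusted p 0.487 to 0.99999), and over all genes DESeq2 called 6 genes where limma and edgeR called 0. In settings other than leaving out a library, 84 of 90 differences of the 10 genes kept their direction. The exceptions were Ngp, with 0.000825 in edgeR and 0.0038 in DESeq2, and Ltf, with 0.066 in edgeR, 0.052 without its filter, 0.065 on counts divided by 4 and 0.068 in DESeq2. Among the other named genes, Csf3 turned to 0.12, 0.092, 0.12 and 0.12 in the same 4 fits, and with TPM scaling Cyba turned to 0.0011 and Osbpl9 to 0.012. The S100a9 difference was -0.11 in edgeR and DESeq2 and -0.32 in limma, and that of Camp was 0.33 in both and 0.081 in limma. The median of all genes was -0.012, 0.031 with TPM and 0.0040 with median-ratio scaling.

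With 1 library left out at a time, 87 of 100 differences of the 10 genes kept their direction. The ranges of those that turned were -0.25 to 0.029 for Ly6g, -0.24 to 0.15 for Lcn2, -0.21 to 0.35 for Camp, -0.61 to 0.10 for Ngp and -0.33 to 0.19 for Ltf. Among the other named genes they were -0.10 to 0.30 for Csf3r, -0.013 to 0.26 for Cebpb, -0.46 to 0.040 for Cebpd, -0.12 to 0.014 for Cyba, -0.52 to 0.16 for Csf3, -0.73 to 0.14 for Cxcl2, -0.038 to 0.089 for Bsg and -0.064 to 0.0030 for Osbpl9. Of those that kept their direction, the difference was 0.055 to 0.75 for Mmp9, 0.0076 to 0.28 for Ctsc, 0.0055 to 0.32 for Cybb, -0.69 to -0.072 for S100a4 and -0.13 to -0.020 for S100a11. The limma count at an unadjusted p under 0.05 was 323 with all libraries, 1218 without therapy replicate 4 and 182 without therapy replicate 2. The 18 correlated pairs were 12 to 23 with 1 library left out, 16 with a pseudocount of 0.1, 19 with median-ratio scaling and 22 for deviations, alternatives chosen after seeing the data. The causes were not tested.

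The groups share replicate numbers, but same-numbered libraries deviated together (r over 0.1) in 1 of 5 pairs, with r from -0.28 to 0.53, so the numbers were not taken to pair the libraries. In 1 pair both libraries correlated best with their own number. With the replicate block, limma called 0 genes over all and 0 of the 10, and its count before adjustment was 366. The precision is set by 5 libraries a group.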
